A study of Mus musculus with 9 samples.

Results

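The set described here holds 10 genes of cyclic AMP (cAMP) signalling, listed by name for their place in the pathway, with earlier results of these data known: the adenylyl cyclases Adcy1 and Adcy2, the phosphodiesterases Pde2a, Pde4a, Pde4b and Pde4d, the catalytic subunits of protein kinase A (PKA) Prkaca and Prkacb, and its regulatory subunits Prkar1b and Prkar2b. All 10 were found among the 22255 genes of the table, and all 10 were among the 14512 genes with enough counts to be tested. Their RNA was read in synaptoneurosomes of the hippocampus, a preparation of broken tissue in which resealed synaptic endings are concentrated. Every library came from Fmr1 KO mice of the C57Bl/6J strain, a model of fragile X syndrome that lacks the RNA-binding protein FMRP. The AM6545 group had 4 libraries (A, B, C and E) from mice given AM6545 sub-chronically, which blocks the cannabinoid receptor CB1 and enters the brain poorly. The vehicle group had 5 libraries (A to E) from mice given vehicle. The dose, the age and sex of the mice, and whether tissue was pooled are not given in the sources used here, and wild-type mice are not analysed here. The labels do not say that each library came from its own mouse, so p-values measure the spread between these libraries, which may be technical.

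cAMP is made from ATP by adenylyl cyclases, which G proteins switch on or off, and is broken down by phosphodiesterases. CB1 couples to inhibitory G proteins that lower cyclase activity. cAMP acts mainly by binding the regulatory subunits of PKA, which frees the catalytic subunits to phosphorylate channels, receptors and the transcription factor CREB. Anchoring proteins hold the regulatory subunits at synapses and other sites, and in the hippocampus the pathway is known for its part in long-term potentiation and memory.

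No member passed the test for a difference between AM6545 and vehicle. By edgeR's quasi-likelihood test with Benjamini-Hochberg adjustment over all 14512 genes, 0 of 10 members had an adjusted p under 0.05, against 0% of all genes tested, and the adjusted p-values of the members ran from 0.653 to 0.935. The count was also 0 of 10 at an unadjusted p under 0.05, a level that 7.21% of all genes reached (3.03% higher and 4.18% lower under AM6545), and the groups overlapped in all 10 members, whereas they did not overlap in 1.45% of all genes (0.579% higher and 0.868% lower). DESeq2's Wald test likewise gave 0 members past its adjusted threshold and 1, Pde2a, at an unadjusted p under 0.05. In that test, run without the count filter, 6.27% of 18509 genes reached the unadjusted level. The fitted log2 fold change (AM6545 over vehicle) was above 0 in 8 of the 10 members and in 48.2% of all genes. Its median was 0.12 over the members and -0.0090 over all genes tested. The members' median was -0.0052 with vehicle A and D left out. That pair was chosen after seeing that both were low in most members, so leaving it out was bound to lower the median, and no other pair was left out.

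**Figure D1:**
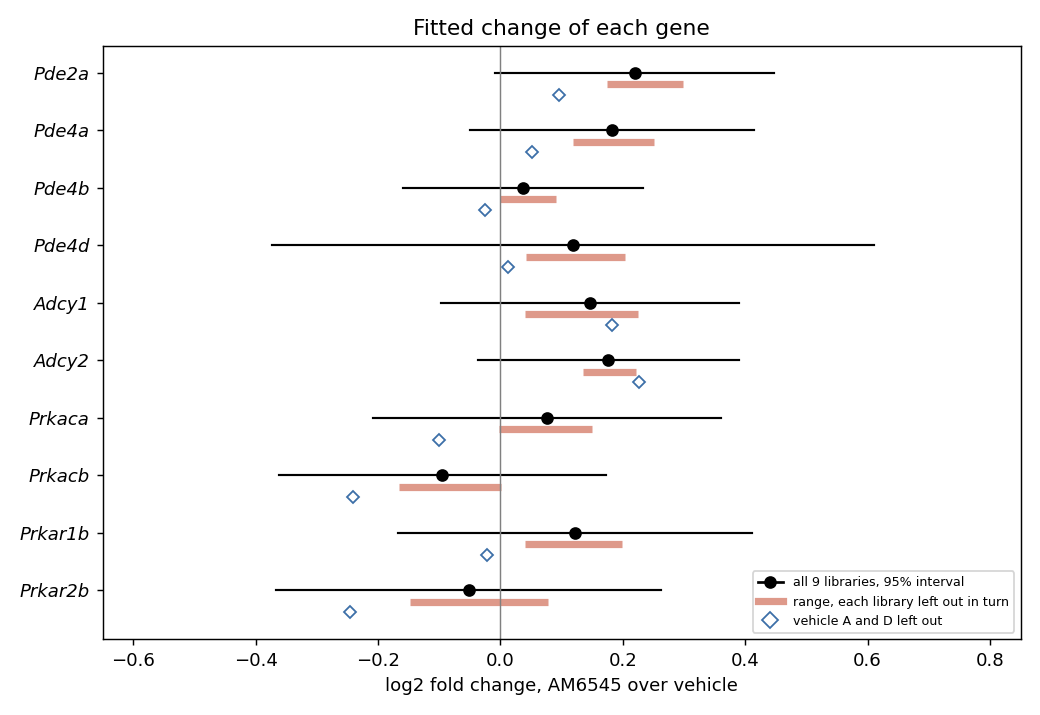
Fitted log2 fold change (horizontal axis, AM6545 over vehicle, no unit) of the 10 cAMP genes, as black points with 95% confidence intervals from the fit to 4 AM6545 and 5 vehicle libraries; thick bars give the range with each library left out in turn and open diamonds the value without vehicle A and D. All 10 intervals of the fit to 9 libraries include 0, and Pde2a had the highest value, 0.22.

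One product of the pathway is transcription through CREB, which binds the cAMP response element (CRE), so the members' own promoters were searched for it. RefSeq promoters of GRCm38.p6 were found for 10 of 10 members, 27 promoters in all with 1 to 5 per gene, and the 250 bases before each start were read on both strands. The full element TGACGTCA was in 0 of 27 member promoters and in 1.55% of 32851 promoters of all genes. Its core TGACG, which the full element contains, was in 5 of 27 member promoters (18.5%) and in 17.8% of all. The core matches are shown because the set holds no full element, with the core in capitals, 5′ to 3′ on the strand of the gene, so that a core on the other strand reads CGTCA:
Prkacb: ggcttgaccgCGTCActtccggcgc
Pde4b: tttggctgcaCGTCAattttctcat
Prkar1b: gagggcggagTGACGggcaggagga
Prkaca: ctgcaactcgCGTCActcatccagg
Prkaca: gctgcgggggCGTCAc
Pde4a: cacagctcgaCGTCAggctggggag
The window of Prkacb lay at chr3:146813034-146813058 (minus strand), that of Pde4b at chr4:102421511-102421535 (plus), that of Prkar1b at chr5:139150036-139150060 (minus) and that of Pde4a at chr9:21184041-21184065 (plus). Prkaca had both of its windows in 1 promoter, at chr8:83972848-83972872 and chr8:83972962-83972977 (plus), and the second one ends at the base before the start. A match describes these letters only. The GC box GGGCGG was in 11 of 27 member promoters (40.7%) and in 32.7% of all. The letters TATAAA were in 1 of 27 (3.7%) and in 12.4% of all.

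The set spanned a wide range of levels. Levels of different genes were compared as CPM (counts scaled to a common library size with TMM) per kilobase, using the median length of each gene's protein-coding transcripts in GENCODE M21. Prkar1b, the neuron-enriched type I regulatory subunit, was the highest at a mean of 746 CPM per kb over the 9 libraries. The catalytic subunits followed, with Prkaca at 66.9 and Prkacb at 64.2 CPM per kb, and these neighbours were not separated: Prkaca was the higher in 5 of 9 libraries. Pde2a (52.1) and Adcy2 (46.9) came next, and their ranges overlapped with each other, while Prkacb and Pde2a overlapped too. Pde4a (32.9) and Pde4b (31.6) lay close together, with Pde4a the higher in 6 of 9 libraries. Adcy1 (20.0) exceeded Prkar2b (13.6) in 8 of 9 libraries with overlapping ranges. Pde4d was the lowest at 0.658 CPM per kb, at percentile 11.3 of tested genes, whereas Prkar1b stood at percentile 99.3. These levels depend on the length used. With the longest transcript Prkar1b stood at 225 CPM per kb, still first, because its median transcript of 795 bases is far shorter than its longest of 2637. With that choice Prkacb (59.1) passed Prkaca (54.0), and Adcy1 (20.0) passed Pde4b (17.8).

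**Figure D2:**
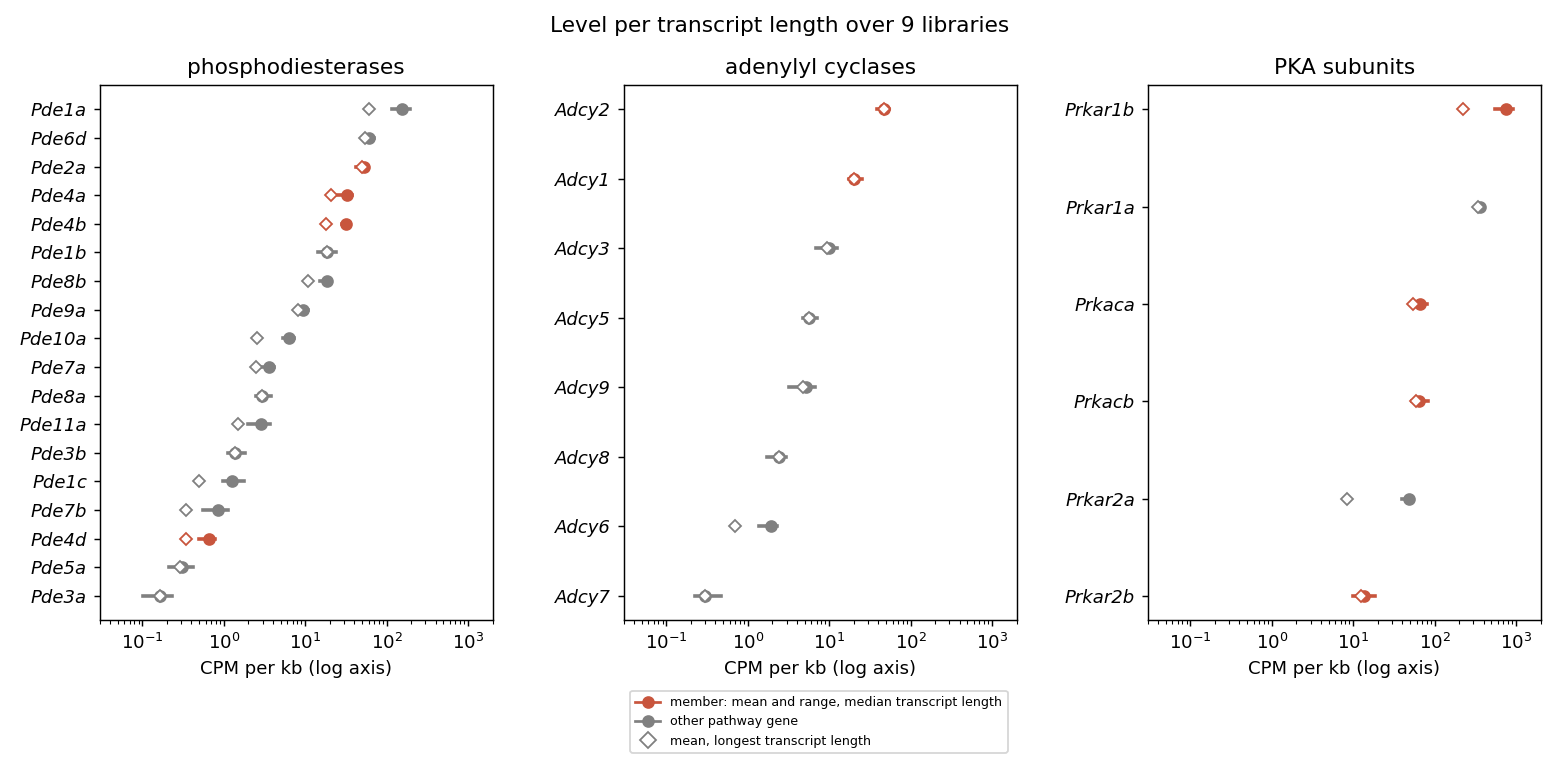
CPM per kilobase (log axis) of the tested phosphodiesterases, adenylyl cyclases and PKA subunits, the 10 members in red and others in grey, with points and lines for the mean and range over 9 libraries at median protein-coding transcript length and open diamonds for the mean at the longest. Among members Prkar1b averaged 746, Pde4d 0.658, and the other 8 between 13.6 and 66.9 at median length.

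The cyclases make the signal. Adcy1, the cyclase that calcium and calmodulin stimulate, had 216, 241, 266 and 314 CPM in AM6545 A, B, C and E, and 249, 251, 215, 240.5 and 216 CPM in vehicle A to E. AM6545 E was the highest of the 9 libraries and vehicle C the lowest, and the groups overlapped. The means were 259 ± 42.0 CPM (SD, n = 4) and 234 ± 17.7 CPM (SD, n = 5), and the fitted log2 fold change was 0.15 (SE 0.11, 95% interval -0.10 to 0.39, edgeR adjusted p = 0.717). AM6545 E carried most of this difference: without it the log2 fold change was 0.04. Leaving out the highest library was bound to lower that value. Without AM6545 A, the lowest of the AM6545 group, the log2 fold change was 0.23. Adcy2, a cyclase that G protein beta-gamma subunits can stimulate, had 199, 191, 225 and 228 CPM under AM6545 and 191, 200.1, 165, 204 and 173 CPM under vehicle. Its 4 AM6545 libraries all exceeded the vehicle mean of 187 ± 17.0 CPM (SD, n = 5), although AM6545 A and B lay below vehicle B and D. The AM6545 mean was 211 ± 18.4 CPM (SD, n = 4), and the fitted log2 fold change was 0.18 (SE 0.10, interval -0.04 to 0.39, edgeR adjusted p = 0.660).

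Adcy1 and Adcy2 varied together over the libraries, and in another order than most of the set. Both were highest in AM6545 E and C and lowest in vehicle C, with vehicle E next lowest among vehicle libraries. Pearson's r of their log2 CPM was 0.82 over the 9 libraries, a description over points that share library and scaling. Vehicle C also had the lowest summed level of markers of CA pyramidal cells (904 CPM over 8 genes), and AM6545 E the highest (1152 CPM). The same 2 libraries were at the ends for microglia markers as well, 588 CPM in vehicle C and 1038 in AM6545 E. Vehicle C was also the lowest of the 9 for astrocyte (3670 CPM) and oligodendrocyte (10778 CPM) markers. Its summed neuron markers (8396 CPM) and interneuron markers (908 CPM) were instead the highest of the 9. The part of any of these cells in the pattern was not tested. In such bulk samples fewer cells of a type and less RNA per cell cannot be told apart. Each of these genes has 1 RefSeq promoter, and the 2 are shown as those of the cyclases that varied together, 250 bases 5′ to 3′ on the gene's strand, with GC boxes (GGGCGG, or CCGCCC on the other strand) in capitals:
Adcy1: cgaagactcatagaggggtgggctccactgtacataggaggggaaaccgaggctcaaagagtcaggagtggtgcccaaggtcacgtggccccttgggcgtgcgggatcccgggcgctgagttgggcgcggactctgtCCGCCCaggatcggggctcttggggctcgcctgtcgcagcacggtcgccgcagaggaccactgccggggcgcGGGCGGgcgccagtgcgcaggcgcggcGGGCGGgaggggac
Adcy2: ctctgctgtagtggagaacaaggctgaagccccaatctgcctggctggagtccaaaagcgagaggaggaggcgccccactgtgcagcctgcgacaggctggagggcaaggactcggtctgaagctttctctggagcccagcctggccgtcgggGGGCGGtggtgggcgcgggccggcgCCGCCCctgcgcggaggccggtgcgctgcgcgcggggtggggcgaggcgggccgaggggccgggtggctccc
The Adcy1 sequence lies at chr11:7063183-7063432 (plus strand, GRCm38.p6), holds 3 GC boxes and has a GC content of 71.2%. The Adcy2 sequence lies at chr13:68999542-68999791 (minus strand), holds 2 and has 73.2%, beside a median of 52.4% over all promoters. Neither holds the CRE core.

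The phosphodiesterases end the signal. Pde2a, which cGMP stimulates to break down cAMP and whose mRNA is a known target of FMRP, had 232, 234, 220.2 and 226 CPM in AM6545 A, B, C and E. In vehicle A to E it had 171, 235, 209, 171 and 193 CPM. The AM6545 libraries lay close together and all above the vehicle mean, and only vehicle B reached them, as the highest of all 9. The means were 228 ± 6.20 CPM (SD, n = 4) and 196 ± 27.1 CPM (SD, n = 5), and the fitted log2 fold change was 0.22 (SE 0.11, interval -0.0079 to 0.45). This did not pass the test (edgeR adjusted p = 0.653), nor did its unadjusted p reach the threshold. Vehicle B decided the overlap: without it the groups did not overlap and the log2 fold change was 0.30 (edgeR adjusted p = 0.325). With vehicle A and D left out, the log2 fold change was 0.10. Gm45837, a gene model that shares a stretch of 3851 bases with Pde2a, had 0 to 37 counts per library, against 2955 to 6421 for Pde2a.

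The PDE4 enzymes are specific for cAMP and are the targets of rolipram. Pde4a had 103, 111, 107 and 97.1 CPM under AM6545 and 75.0, 96.3, 109, 84.0 and 95.7 CPM under vehicle. Its 4 AM6545 libraries exceeded all vehicle libraries except C. The means were 104 ± 5.98 CPM (SD, n = 4) and 92.0 ± 13.0 CPM (SD, n = 5), and the fitted log2 fold change was 0.18 (SE 0.11, interval -0.05 to 0.41, edgeR adjusted p = 0.662). Leaving out vehicle C was therefore bound to end the overlap and to raise the log2 fold change. The latter was then 0.25 (edgeR adjusted p = 0.682). That was the lowest adjusted p in that fit, but other genes shared it, Pde2a, Adcy3 and Vgf among them. Without vehicle A and D the log2 fold change was 0.05. Pde4b, the PDE4 gene also known for its part in inflammatory responses, had 78.0, 84.0, 80.3 and 69.3 CPM under AM6545 and 71.9, 74.7, 83.5, 70.8 and 78.7 CPM under vehicle. Its groups were interleaved, with the highest and the lowest library both under AM6545 (B and E). Its means of 77.9 ± 6.27 CPM (SD, n = 4) and 75.9 ± 5.21 CPM (SD, n = 5) differed by less than the spread within either group (log2 fold change 0.04, SE 0.09, interval -0.16 to 0.23, edgeR adjusted p = 0.920). Pde4d was counted only 24 to 42 times per library, at 1.34, 1.57, 1.67 and 1.47 CPM under AM6545 and 1.39, 1.13, 1.73, 1.10 and 1.65 CPM under vehicle. At this depth its log2 fold change of 0.12 had an SE of 0.23 and an interval from -0.37 to 0.61, the widest of the set.

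Set against each other, the 2 abundant PDE4 genes had a ratio that was narrow under AM6545 and wider under vehicle. The ratio of Pde4a to Pde4b CPM was 1.32, 1.32, 1.33 and 1.40 in AM6545 A, B, C and E, and 1.04, 1.29, 1.31, 1.19 and 1.22 in vehicle A to E. The groups did not overlap, with the lowest AM6545 library just above vehicle C. Per kb of median transcript, Pde4a made up 51.9% ± 0.69 of the summed PDE4 members under AM6545 (SD, n = 4) and 49.2% ± 2.24 under vehicle (SD, n = 5). Pde4d made up 1.01% in both groups. Among all 45 pairs of members, the ratio did not overlap between groups in 2, or 4.44%, against 1.61% of all pairs of tested genes. The other pair was Pde2a over Prkacb, at 0.862, 1.02, 0.938 and 0.882 under AM6545 and 0.722, 0.836, 0.629, 0.810 and 0.744 under vehicle. These ratios do not depend on library scaling, but the 45 pairs share genes and libraries, and no test was made of them.

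PKA carries the signal on. Prkaca, the alpha catalytic subunit, had 146, 127, 117 and 116 CPM under AM6545 and 101, 142, 139.8, 93.1 and 123 CPM under vehicle. Its means of 127 ± 14.2 CPM (SD, n = 4) and 120.0 ± 22.2 CPM (SD, n = 5) differed by less than either spread, and the groups overlapped. The log2 fold change was 0.08 (SE 0.13, interval -0.21 to 0.36, edgeR adjusted p = 0.881), and it was -0.10 without vehicle A and D. Prkacb, the beta catalytic subunit, had 269.8, 229, 235 and 257 CPM under AM6545 and 236, 281, 332, 212 and 259.9 CPM under vehicle. Vehicle held both its highest library, C, and its lowest, D. The means were 248 ± 19.1 CPM (SD, n = 4) and 264 ± 46.1 CPM (SD, n = 5), and the fitted log2 fold change was -0.09 (SE 0.12, interval -0.36 to 0.17, edgeR adjusted p = 0.834). Per kb of median transcript, Prkaca made up 52.6% ± 2.38 of the 2 catalytic subunits under AM6545 and 49.7% ± 1.93 under vehicle (SD, n = 4 and 5), with overlapping ranges. With the longest transcript its share was 49.4% under AM6545 and 46.4% under vehicle, so which subunit was the larger part depends on the length used.

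The regulatory subunits set how cAMP and the anchoring proteins reach the kinase. Prkar1b had 647, 721, 599 and 519 CPM under AM6545 and 438, 609, 657, 531 and 619 CPM under vehicle. AM6545 B was the highest library and vehicle A the lowest, and AM6545 E lay below 4 of the 5 vehicle libraries. The means were 621 ± 84.8 CPM (SD, n = 4) and 571 ± 87.5 CPM (SD, n = 5), and the fitted log2 fold change was 0.12 (SE 0.13, interval -0.17 to 0.41, edgeR adjusted p = 0.799). Prkar2b, a type II subunit with high affinity for anchoring proteins, had 40.5, 39.5, 41.9 and 44.8 CPM under AM6545 and 31.1, 41.8, 58.2, 37.2 and 47.7 CPM under vehicle. The 4 AM6545 libraries fell inside the vehicle range. Its means were 41.7 ± 2.30 CPM (SD, n = 4) and 43.2 ± 10.4 CPM (SD, n = 5), and the fitted log2 fold change was -0.05 (SE 0.15, interval -0.37 to 0.26, edgeR adjusted p = 0.935). Within vehicle Prkar2b had the largest spread of the 10 members, with an SD of 0.34 on the log2 scale against 0.08 under AM6545.

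**Figure D3:**
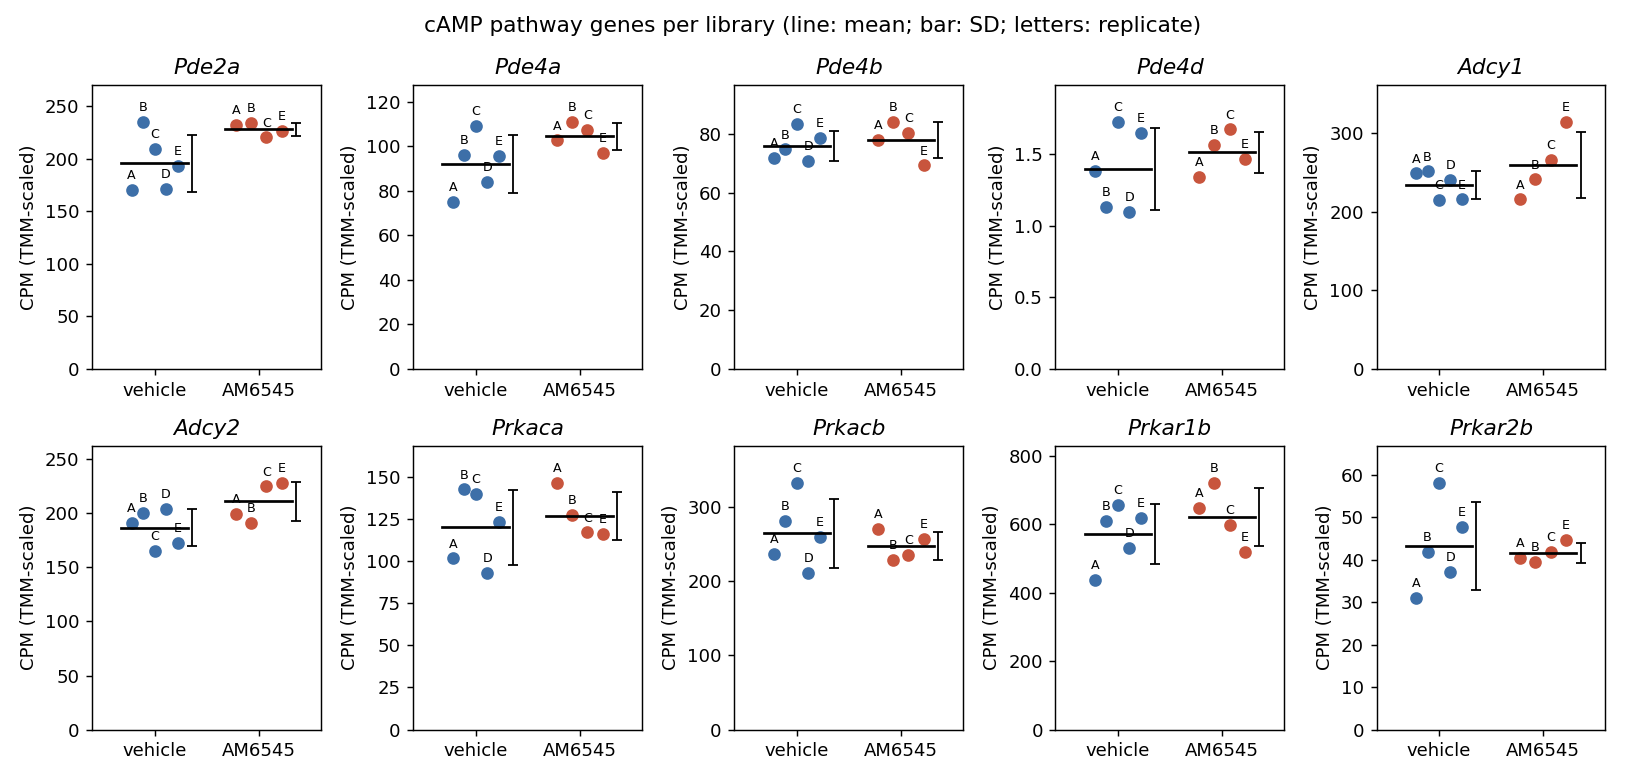
CPM (TMM-scaled, vertical axes, 1 panel per gene) of the 10 cAMP genes in 4 AM6545 and 5 vehicle libraries, with each library as a point under its replicate letter, the group mean as a line and the SD as an error bar beside it. The groups overlap in every panel, and the Pde2a points under AM6545 sit between 220.2 and 234.

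Vehicle A and D stood low in much of the set. They were the 2 lowest vehicle libraries in 7 of the 10 members (Pde2a, Pde4a, Pde4b, Prkaca, Prkacb, Prkar1b and Prkar2b), and in 17.4% of all tested genes. The exceptions were the 2 cyclases and Pde4d. Of the 10 members, 8 had a larger SD of log2 CPM under vehicle than under AM6545, as had 56.7% of all tested genes. In 3 members, Pde2a, Pde4a and Adcy2, every AM6545 library exceeded the vehicle mean, as it did in 9.73% of tested genes. The same 2 libraries had the lowest summed neuron markers among vehicle libraries, 6267 CPM in A and 6595 in D against 6946 to 8396 in the other 3. AM6545 libraries were at 6653 to 7566. Narrower neuronal lists did not follow. CA pyramidal markers in A and D, 950 and 939 CPM, were above vehicle C (904) and E (930) and below B (1091). Dentate granule markers, 385 and 402 CPM, were likewise above C (383) and E (342) and below B (430). Interneuron markers, 807 and 879 CPM, lay inside the 796 to 908 of the other 3. Vehicle A and D also had the highest summed choroid plexus markers, 9520 and 10915 CPM against 312 to 5449 CPM in the other 7 libraries. Of those 8 genes 1 was at 0 in a library. Their oligodendrocyte markers were the highest under vehicle, 22534 and 18040 CPM, while AM6545 E had 18858. Striatum markers were also highest in A and D, 256 and 267 CPM against 195 to 230 in the other 7. So were endothelial (86.0 and 103.7 against 48.3 to 82.9) and ependymal markers (69.7 and 64.0 against 42.1 to 55.8). Astrocyte, oligodendrocyte precursor, microglia and mural or leptomeningeal markers were highest in another library. The part of these cells in the members' values was not tested. Without vehicle A and D, the log2 fold changes of Pde2a, Pde4a, Adcy1 and Adcy2 were 0.10, 0.05, 0.18 and 0.23. Those of Prkacb and Prkar2b were then -0.24 and -0.25.

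**Figure D4:**
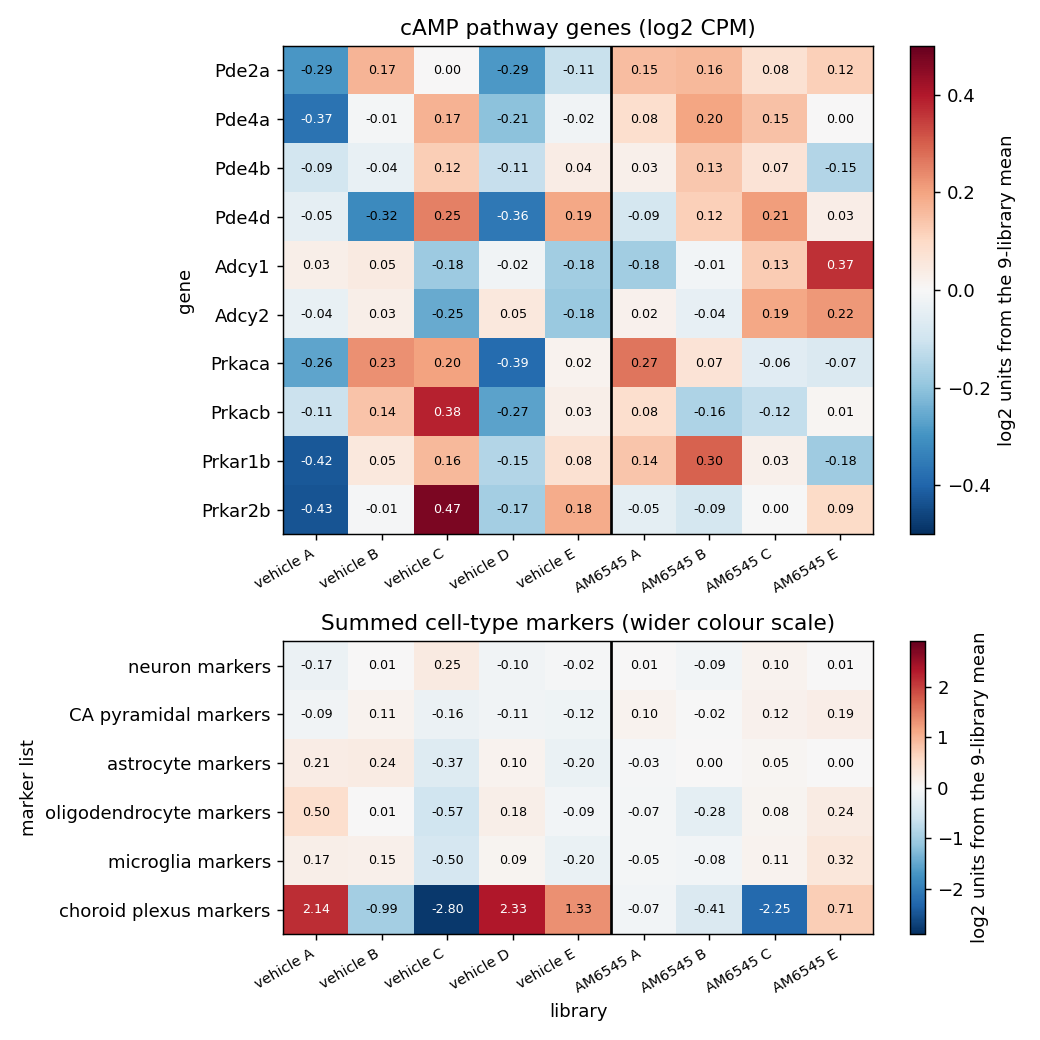
Upper panel, log2 CPM of the 10 cAMP genes in each library as the deviation from the 9-library mean (log2 units), and lower panel, the same for the summed CPM of 6 cell-type marker lists on a wider colour scale. Vehicle A is at -0.29, -0.37, -0.42 and -0.43 for Pde2a, Pde4a, Prkar1b and Prkar2b, and at 2.14 for choroid plexus markers.

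Over the 9 libraries the members fell into loose sets, described here with no p because all values share library, depth and scaling. Pde4a and Prkar1b were the most alike pair (Pearson's r of log2 CPM 0.89), followed by Pde4b and Prkar1b (0.83) and by the cyclases. Pde2a was most like Pde4a (0.81), Prkaca most like Pde2a (0.79), and Prkar2b most like Prkacb (0.76). The least alike pair was Pde4b and Adcy1, at -0.57. Many genes outside the set were closer: 376 tested genes had a higher r with Pde2a than Pde4a had, led by Nudcd3 (0.97) and Lrrc61 (0.97). Prkar1b was most like Clip3 (0.99) and Lrrc59 (0.99), and Adcy2 most like Matn2 (0.99) and Plxna1 (0.99). Pde4a was most like Vps26b (0.97) and Trim2 (0.96), Adcy1 like Pcdh19 and Adam23 (0.95 each), and Prkar2b like Sertad4 (0.99) and Vxn (0.98). The nearest genes of Pde4b were Zfp27 and Top1mt (0.97 each), of Prkaca Etv5 and Rnf126 (0.97 each), and of Prkacb Rab7 and Rab6b (0.97 each). For Pde4d they were Dusp12 (0.97) and Dcaf17 (0.91). With 9 points and 14512 genes to choose from, such values describe these libraries only.

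The rest of the pathway was read from 7 lists of 86 genes, of which 75 were tested. By edgeR's quasi-likelihood test 0 of 75 passed the adjusted threshold and 3 had an unadjusted p under 0.05, all higher under AM6545, beside the 7.21% of all genes that reached that level. The fitted log2 fold change was above 0 in 48 and below 0 in 27, with a median of 0.06. The 3 genes were Vgf, Adcy3 and Akap9, each with an adjusted p of 0.653. Vgf, a secreted neuropeptide precursor, had 107, 96.3, 93.5 and 102 CPM under AM6545 and 65.9, 101, 70.7, 69.1 and 78.7 CPM under vehicle. Only vehicle B overlapped the AM6545 libraries, and the log2 fold change was 0.37 (SE 0.12). Adcy3, the cyclase of olfactory neurons and primary cilia, had 50.2, 47.1, 55.1 and 58.6 CPM under AM6545 and 32.2, 52.6, 41.4, 42.8 and 37.7 CPM under vehicle, and its log2 fold change was 0.35 (SE 0.13). It shares 924 bases with Cenpo on the opposite strand, which had 63 to 108 counts per library against 557 to 1475 for Adcy3. Akap9, a large anchoring protein of the Golgi and centrosome, had 76.7, 86.1, 53.7 and 60.6 CPM under AM6545 and 59.0, 50.1, 53.6, 61.1 and 58.3 CPM under vehicle (log2 fold change 0.30, SE 0.13). AM6545 A and B stood above all vehicle libraries, while C and E lay among them. It shares 166 bases with Cyp51 on the opposite strand, which had 2032 to 4108 counts. With 1 library left out in turn, Vgf and Adcy3 kept an unadjusted p under 0.05 in all 9 cases, with log2 fold changes of 0.32 to 0.49 and 0.27 to 0.46. Akap9 lost it in 5 of 9, without AM6545 A, AM6545 B, vehicle B, vehicle C or vehicle E, and its log2 fold change ran from 0.17 without AM6545 B to 0.40 without AM6545 C. Without vehicle A and D together, Vgf (0.25) and Adcy3 (0.26) lost it and Akap9 (0.35) did not.

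By role, the other cyclases had 6 of 8 genes tested, 5 above 0 and 1 below, with a median log2 fold change of 0.16. Beside the members, Adcy3 (9.87 CPM per kb over the 9 libraries) and Adcy5 (5.69) were the most abundant, both below Adcy1 and Adcy2. The other phosphodiesterases had 14 of 20 tested, 8 above 0 and 6 below (median 0.01). Pde1a, a calmodulin-stimulated enzyme, stood at 155 CPM per kb and Pde6d, a prenyl-binding chaperone, at 60.9, and their log2 fold changes were 0.05 and -0.09. The fourth PDE4 gene, Pde4c, had 3 to 14 counts per library and was not tested.

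The remaining PKA subunits and inhibitors had 5 of 5 tested, 2 above 0 and 3 below (median -0.13). The 3 below 0 were the PKA inhibitor genes Pkia (-0.15), Pkib (-0.18) and Pkig (-0.13), none at an unadjusted p under 0.05. Prkar1a, the broadly expressed type I subunit, stood at 362 CPM per kb, below Prkar1b with median lengths and above it with the longest (346 against 225 CPM per kb), so their order is not settled here. Of 23 anchoring proteins 20 were tested, 17 above 0 and 3 below (median 0.09). Map2, which is also among the neuron markers, and Wasf1 were the highest at 183 and 162 CPM per kb, with log2 fold changes of 0.10 and 0.11. With the longest transcript their order reversed, to 56.9 for Map2 and 159 for Wasf1. Leaving out 1 library moved the log2 fold change of Pkia from -0.26 (without AM6545 E) to -0.04 (without vehicle C), that of Map2 from 0.06 (without vehicle A) to 0.14 (without AM6545 C), and that of Wasf1 from 0.05 (without vehicle A) to 0.17 (without vehicle C).

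The other cAMP effectors, which include the exchange factors for Rap known as Epac, had 5 of 5 tested, 3 above 0 and 2 below (median 0.06). Rapgef4, which encodes Epac2, stood at 117 CPM per kb with a log2 fold change of 0.09, and Popdc3 at 7.87 with -0.08. CREB and its coactivators had 8 of 8 tested, 5 above 0 and 3 below (median 0.05), with the histone acetyltransferases Ep300 at 39.5 CPM per kb (log2 fold change 0.13) and Crebbp at 34.3 (0.07). That rank holds only for median lengths: with the longest transcript Ep300 stood at 2.06 and Crebbp at 6.44 CPM per kb, below Crtc1 (15.7) and Crem (9.06). Leaving out 1 library moved Rapgef4 from 0.01 (without AM6545 E) to 0.19 (without vehicle B), Crebbp from 0.0035 (without AM6545 B) to 0.12 (without AM6545 A) and Ep300 from 0.09 (without AM6545 E) to 0.17 (without AM6545 C) on the log2 scale. Genes known to respond to CREB had 17 of 17 tested, 8 above 0 and 9 below (median -0.03). Within that list Sst, the somatostatin gene, was the highest at 279 CPM per kb and had a log2 fold change of -0.26 (SE 0.12, edgeR adjusted p = 0.653). Vgf followed at 36.1 CPM per kb with median lengths, while with the longest transcript Junb (31.8) passed it (30.7).

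Of the series as a whole, totals ran from 17628922 to 27263393 counts per library, and mitochondrially encoded genes held 4.06% to 7.90% of them, with vehicle A at the lowest total and the highest share. No gene of the 14512 passed the adjusted threshold by edgeR, and 1047 had an unadjusted p under 0.05. By DESeq2, which tested 18509 genes without the count filter, the counts were 0 and 1160 (6.27%). Fmr1, the gene targeted in every mouse, was still counted 199 to 310 times per library, at 10.1 ± 0.754 CPM under AM6545 (SD, n = 4) and 11.7 ± 1.18 CPM under vehicle (SD, n = 5), so reads of its locus do not separate the groups (log2 fold change -0.22, edgeR adjusted p = 0.653). Which part of the gene these counts cover is not given in the sources used here, so they do not check the genotype.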

How the data were processed

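RNA of hippocampal synaptoneurosomes was sequenced in 9 libraries made with a SMARTer Ultra Low Input kit, per the labels' protocols. The authors deposited 1 table of estimated counts per gene. The submitters' processing notes name Salmon 1.3, DESeq2 1.30, GRCm39 and mm10 with no role for each, and the annotation and strand setting are not given in the sources used here, so reads of genes that overlap on opposite strands cannot be told apart. Symbols matched 22155 of 22255 identifiers, and the others held 0.0623% to 0.0763% of counts.

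The estimated counts were rounded to whole numbers, kept by filterByExpr (14512 genes), scaled with TMM and fitted with the quasi-likelihood method of edgeR 4.0.16 under R 4.3.3. P-values were Benjamini-Hochberg adjusted over all genes and called under 0.05. Intervals are 95%. The scripts were tested on simulated data. Alternatives used DESeq2 1.42.0, limma 3.58.1, other scalings and filters, the title letter as a block, a length trend (lowess, span 0.3) and libraries left out. Correlations used log2 CPM with a prior count of 2. Shared sequence was found with blastn 2.17.0 in GENCODE M21 transcripts (identity at least 97%, at least 100 bases). No 2 libraries agreed within sampling noise.

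The members and lists were chosen with earlier results of these data known. The genes named were the 10 members, pathway genes with an unadjusted p under 0.05 or groups that did not overlap, the 2 genes of highest level per kb in each list, Fmr1, and the genes most correlated with each member. The 3 inhibitor genes, Pde4c, Crtc1, Crem, Junb and the marker lists beside the results were picked out after their values were seen.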

Additional observations from a re-analysis of the deposited data

How the results depend on the processing

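No member and no pathway gene passed the adjusted threshold under any of the 20 alternatives run. Over all genes 1 did, Gm14308, without AM6545 A (edgeR adjusted p = 0.00249), so leaving out 1 library gave 0 to 1. Members at an unadjusted p under 0.05 numbered 0 in the fit reported and 1, Pde2a, with DESeq2 size factors in edgeR, with DESeq2's Wald test and with limma-voom with sample weights, and 0 to 2 with 1 library left out (Pde2a without vehicle B, Pde2a and Pde4a without vehicle C). Members whose groups did not overlap then numbered 0 to 1 (Pde2a without vehicle B, Pde4a without vehicle C). Each time the library left out was the only vehicle library that had overlapped. The share of all genes without overlap was not computed for those fits. Pathway genes at an unadjusted p under 0.05 numbered 3 in the fit reported, where 7.21% of all genes reached that level. They numbered 6 with DESeq2's Wald test (6.27% of all genes), 8 with limma-voom (12.6%) and 5 with each library's length trend removed (6.47%). With 1 library left out they numbered 2 to 7. The highest were 7 without AM6545 E (12.6%), 7 without vehicle B (1797 of 14433 genes) and 6 without AM6545 C (4.71%). The counts of 7 and 8 came in fits where more of all genes also reached that level. Those of 5 and 6 did not. The members' median log2 fold change was 0.07 to 0.15 with 1 library left out and -0.0052 without vehicle A and D. Without those 2, Pde4b (-0.025), Prkaca (-0.10), Prkar1b (-0.022), Pde1a (-0.087), Prkar1a (-0.042) and Wasf1 (-0.053) reversed. Leaving out 1 library reversed Pde4b (-0.00071 to 0.090), Prkaca (-0.0026 to 0.15), Prkacb (-0.17 to 0.0012), Prkar2b (-0.15 to 0.077), Prkar1a (-0.014 to 0.079), Pde1a (-0.030 to 0.15), Adcy5 (-0.051 to 0.11) and Popdc3 (-0.16 to 0.020). Adcy5 was -0.0075 with limma-voom, and Prkar1a -0.014 with the length trend removed. The cause of these reversals was not tested. With the title letter as a replicate block, members at an unadjusted p under 0.05 numbered 0. Pathway genes numbered 3 over 9 libraries (5.23% of all genes) and 4 over the 8 with a shared letter (5.34%). The members' median log2 fold change was 0.08 with the block. Whether the letters pair the samples cannot be told from these values, since only 4 letters were shared. Deviations of same-letter libraries correlated at -0.02, 0.04, 0.34 and -0.02 for A, B, C and E. In 1 of 4 letters, C, the same-letter library was the most alike. Overlap of groups was not recomputed for limma-voom, the block or the length trend. Depth limits Pde4d, with 24 to 42 counts per library.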
